A study of Mus musculus with 9 samples.

Results

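Genes of the lysosome were followed in mouse pluripotent cells and fibroblasts. The set holds 35 genes, chosen by name as lysosomal enzymes, membrane proteins and a regulator, out of 19938 genes that the arrays measured with a probe set of a single gene symbol. All 35 had such a probe set, and where a gene had several the one with the highest mean was used. RNA of 9 cultures was measured on Affymetrix whole-transcript arrays, 3 arrays in each of 3 groups. The groups were iPS cells (called inducible pluripotent stem cells in the labels), which were derived from fibroblasts, the embryonic stem cell line R1, and mouse embryonic fibroblasts (MEF) at a passage below 3. According to the labels these MEF were the cells used to derive the iPS cells, and the design text names embryonic stem cells and MEF as their controls. R1 is 1 established line. The sources used here name no strain, reprogramming factors, number of iPS clones or feeder cells, and do not say that the 3 biological repeats of a line came from separate derivations. P-values therefore measure the spread between these cultures.

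Lysosomes are acidic organelles in which proteins, glycans and lipids are broken down. Cathepsins cleave proteins, glycosidases and sulfatases take apart glycoproteins, glycolipids and glycosaminoglycans, and lipases, ceramidases and sterol-binding proteins handle lipids. Most of these soluble enzymes reach the lysosome by a mannose 6-phosphate tag, while heavily glycosylated membrane proteins such as LAMP1 and LAMP2 line the organelle. The transcription factor TFEB, with its relatives TFE3 and MITF, can bind E-box elements near the start of many lysosomal genes, known together as the CLEAR network. Fibroblasts also use cathepsins and secreted lysosomal proteins in turning over the extracellular matrix.

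The arrays were close to a common scale, with median signals of 78.2 to 83.3. Pluripotency markers were at a summed signal of 30398 to 31813 in iPS, 36178 to 37462 in R1 and 442 to 607 in MEF arrays over 10 genes. The summed signal of 14 fibroblast markers was 4212 to 5159 in iPS, 3180 to 4240 in R1 and 35623 to 40610 in MEF arrays. The labels thus matched the defining markers in setting MEF apart from both pluripotent groups, while the pluripotency sums were lower in iPS than in R1 arrays. Some fibroblast marker signal was present in both pluripotent groups. Of 16 measured macrophage markers, 14 had a mean signal under 50 in each group.

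Promoter windows are shown first because they separated the lysosomal genes in a way that no expression value entered. RefSeq windows (build GRCm38.p6, 250 bases before to 50 after an annotated start) were matched by symbol for 31 of the 35 genes, 35 windows in all. No window was matched for Asah1, Ctsb, Ctsh and Npc1. The letters CACGTG, the E-box core of the CLEAR element and a palindrome that reads the same on both strands, stood in a window of 12 of the 31 genes (38.7%). They stood in a window of 9.5% of the 15614 tested genes with a window and of 8.09% of all 27025 genes of the table. The longer TCACGTG, searched on both strands and by its letters a subset of the first motif, was found for 10 of 31 genes (32.3%), against 5.35% of the tested genes. A match is only a run of letters, and binding was not measured. Lamp1 and Lamp2, the genes of both major lysosomal membrane proteins, differ in it. The Lamp1 window holds the core at 4 places, beginning at positions -61, -45, -28 and -15 from the start site, and the Lamp2 window at 0. Capitals mark the core.
Lamp1 (chr8:13158911-13159210, plus strand): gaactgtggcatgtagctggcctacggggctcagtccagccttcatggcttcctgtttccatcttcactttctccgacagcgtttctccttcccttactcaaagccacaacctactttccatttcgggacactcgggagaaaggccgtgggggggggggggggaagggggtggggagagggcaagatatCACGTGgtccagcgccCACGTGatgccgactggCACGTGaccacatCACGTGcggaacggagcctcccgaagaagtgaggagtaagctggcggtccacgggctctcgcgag
Lamp2 (chrX:38456411-38456710, minus strand): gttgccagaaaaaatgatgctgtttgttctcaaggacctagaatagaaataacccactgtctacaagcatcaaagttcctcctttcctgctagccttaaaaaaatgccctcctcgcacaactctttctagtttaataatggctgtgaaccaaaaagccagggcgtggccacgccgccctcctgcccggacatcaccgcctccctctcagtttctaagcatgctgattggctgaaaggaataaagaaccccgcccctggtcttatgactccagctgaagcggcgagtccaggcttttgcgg
The other genes with the core are shown as stretches of up to 15 bases on either side of it, 1 stretch a gene. Ctsa, Ctsd, Gla and Mcoln1 hold it at a second place that is not shown. In Ctsf and Ctsl the core is not part of TCACGTG on either strand.
Ctsa (chr2:164833746-164833781, plus strand): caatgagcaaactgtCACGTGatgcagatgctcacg
Ctsd (chr7:142387905-142387940, minus strand): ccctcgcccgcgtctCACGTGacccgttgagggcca
Ctsf (chr19:4855071-4855106, plus strand): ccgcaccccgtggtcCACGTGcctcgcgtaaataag
Ctsl (chr13:64370736-64370770, minus strand): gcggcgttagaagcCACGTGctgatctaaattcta
Gla (chrX:134601179-134601214, minus strand): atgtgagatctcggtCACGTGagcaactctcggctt
Gaa (chr11:119267808-119267843, plus strand): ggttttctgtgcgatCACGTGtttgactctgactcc
Glb1 (chr9:114401015-114401050, plus strand): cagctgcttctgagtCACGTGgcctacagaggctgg
Naglu (chr11:101070006-101070041, plus strand): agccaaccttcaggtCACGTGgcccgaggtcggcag
Sgsh (chr11:119355519-119355554, minus strand): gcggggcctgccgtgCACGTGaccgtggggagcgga
Arsa (chr15:89477420-89477455, minus strand): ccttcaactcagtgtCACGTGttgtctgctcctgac
Mcoln1 (chr8:3500459-3500494, plus strand): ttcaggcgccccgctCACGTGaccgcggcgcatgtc

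The first comparison sets iPS cells beside the fibroblasts they came from. Lysosomal genes were mostly lower in iPS cells, by a median of -0.44 on the log2(signal + 16) scale, whereas the median of all 19938 genes was 0.02. Genes that fell included those of the collagen-cleaving protease cathepsin K, the tetraspanin CD63 and the acid lipase Lipa, while the regulator Tfeb and the membrane protein gene Cd68 rose. A gene was called when its adjusted p was under 0.05 and its difference was 1 or more in size, and only such genes are said to have risen or fallen. By this rule 8 of 35 genes fell and 2 rose. The background over all genes was 7.57% lower and 5.08% higher, 12.7% in all. By the adjusted p alone 23 were lower and 6 higher, against 23.2% and 24.8% of all genes (48% in either direction). Of all genes 30.1% had a mean signal under 50 over all arrays, but only 2 of the 35. The background thus holds more dim genes, whose differences this scale understates. In bulk RNA, fewer cells of a type and less RNA per cell cannot be told apart.

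The second comparison gives the same difference for the embryonic stem cell line. In R1 cells the median over the lysosomal genes was -0.48, beside 0.02 over all genes. Of the 35 genes, 9 fell and 2 rose, with a background of 7.93% lower and 5.56% higher (13.5% in all). By the adjusted p alone 25 were lower and 6 higher, against 23% and 25.9% of all genes (48.9% in either direction). Both comparisons use the same MEF arrays, so their values stand side by side and their likeness is not a result of its own. All iPS arrays lay below all MEF arrays for 23 of the genes (24.9% of all genes) and above them for 5 (27.3%, with 52.3% in either direction). All R1 arrays lay below all MEF arrays for 26 genes (25.2%) and above them for 6 (29.1%, with 54.3% in either direction).

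**Figure D1:**
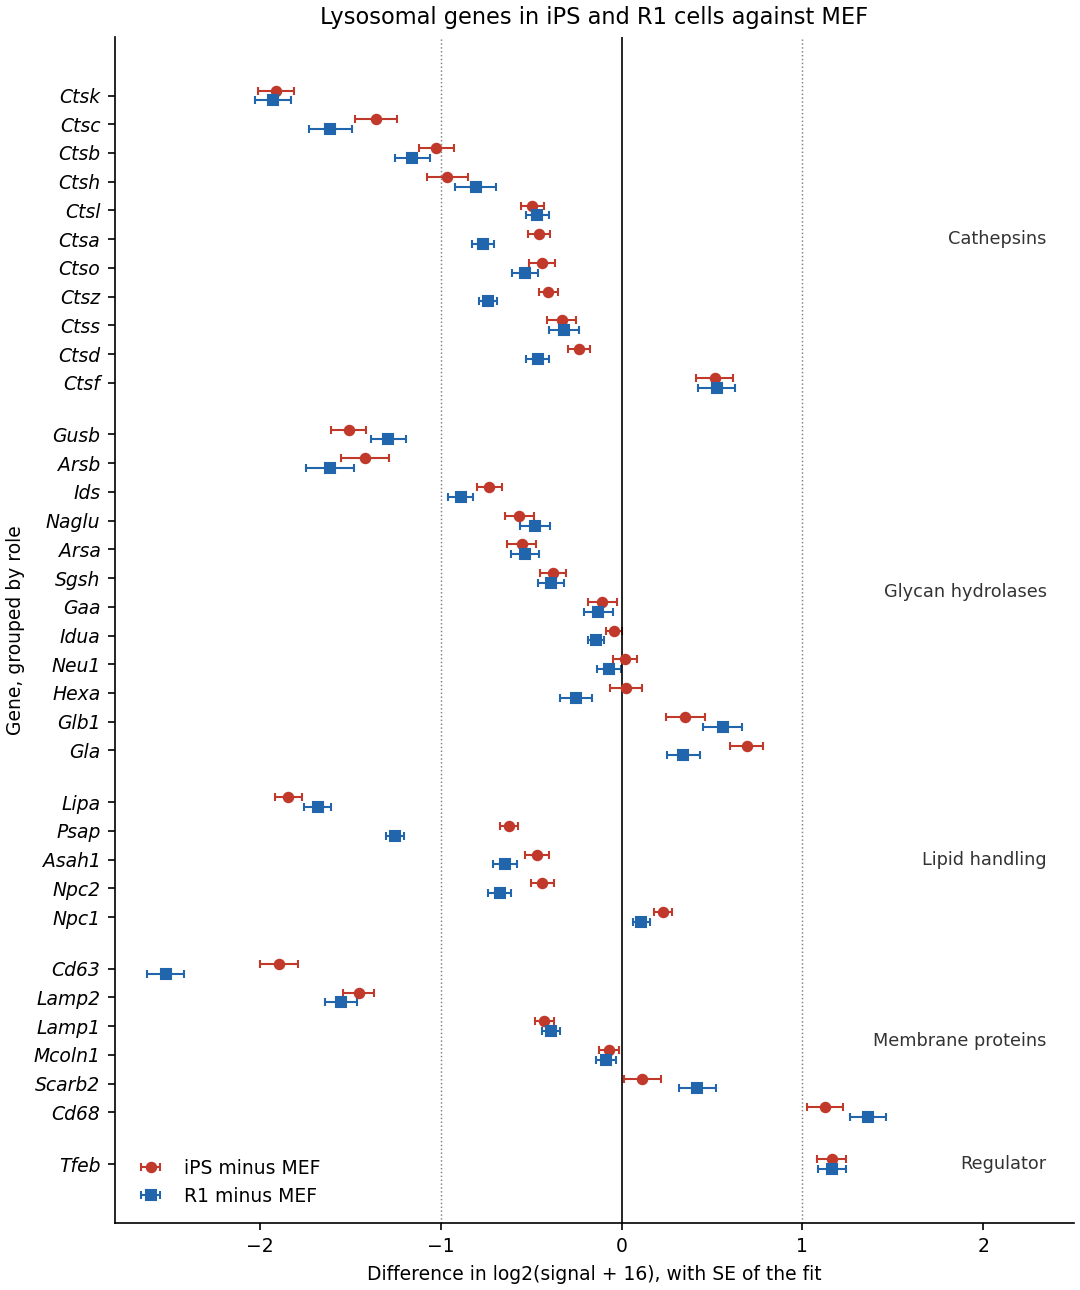
Differences in log2(signal + 16) of iPS minus MEF (circles) and R1 minus MEF (squares) for the 35 lysosomal genes, grouped by role, with the standard error of the fit as bars. Dotted lines mark the minimum difference of a call, and most genes lie left of 0, with Cd68 and Tfeb to the right of 1.

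Of the 11 cathepsin genes, 10 were lower in iPS cells by the adjusted p and 3 of them fell, and the same numbers held for R1 cells. Over all genes, 23.2% were lower by the adjusted p and 7.57% fell in iPS cells, and 23% and 7.93% in R1 cells. Their median difference was -0.46 in iPS and -0.74 in R1 cells. Ctsk encodes cathepsin K, known from osteoclasts and fibroblasts for degrading collagen. Its signal was 50.2, 42.5 and 53.8 in iPS and 48.5, 48.2 and 47.2 in R1 arrays, against 191, 244 and 251 in MEF arrays. Both pluripotent groups lay below the fibroblasts and overlapped each other. Their means of 48.8 in iPS and 47.9 in R1 arrays are under 50, where a level is not told apart from background, so the size of the difference and its rank among the genes rest on that floor. The difference was -1.91 ± 0.10 in iPS (SE, adjusted p = 1.61e-07) and -1.93 ± 0.10 in R1 cells (adjusted p = 1.33e-07). The 6 osteoclast markers did not share a direction, with median differences of 0.11 in iPS and 0.09 in R1 cells. The integrin gene Itgb3 fell in both, with 137 ± 19.3 in iPS and 142 ± 15.8 in R1 arrays, against 718 ± 109 in MEF arrays. In iPS cells 2 markers passed the adjusted p upward and 1 downward, in R1 cells 1 upward and 2 downward. The acid phosphatase gene Acp5 was among the higher ones in both (0.83 ± 0.09 and 0.59 ± 0.09, short of a call). The summed signal of the 6 was 499 to 565 in iPS, 478 to 515 in R1 and 941 to 1115 in MEF arrays, but without Itgb3 it was 378 to 406 in iPS, 328 to 374 in R1 and 272 to 289 in MEF arrays. Of 14 fibroblast markers 12 fell in each. The part of either list in the difference of Ctsk was not tested.

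Cathepsin C (Ctsc), a dipeptidyl peptidase that activates serine proteases of immune cells, had signals of 271, 218 and 263 in iPS and 206, 244 and 176 in R1 arrays, against 605, 719 and 676 in MEF arrays. It fell, by a log2 difference of -1.36 ± 0.12 in iPS (adjusted p = 6.2e-06) and -1.61 ± 0.12 in R1 cells (adjusted p = 1.7e-06), and its iPS and R1 arrays overlapped. Cathepsin B (Ctsb), a broadly expressed cysteine protease, had 699, 724 and 729 in iPS and 592, 787 and 596 in R1 arrays, against 1448, 1489 and 1489 in MEF arrays. The MEF arrays were all higher, and the R1 arrays spread to both sides of the iPS arrays. Ctsb fell in both, by -1.02 ± 0.10 in iPS and -1.16 ± 0.10 in R1 cells, although the iPS call was at the threshold and ended with quantile normalization (-0.998) or a pseudocount of 64 (-0.98). Ctsh, an aminopeptidase, was just short of a call in iPS cells with -0.96 ± 0.11, and its signals were dim at 39.4 ± 3.75 in iPS, 45.8 ± 3.58 in R1 and 93.1 ± 19.6 in MEF arrays (SD, n = 3 each).

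The remaining cathepsins differed less. Cathepsin D (Ctsd), the main aspartic protease of lysosomes, averaged 1975 ± 92.2 in iPS, 1685 ± 117 in R1 and 2327 ± 102 in MEF arrays, a difference of -0.23 ± 0.06 and -0.46 ± 0.06. Cathepsin L (Ctsl) differed by -0.49 ± 0.06 in iPS and -0.47 ± 0.06 in R1 cells. Ctsa, which encodes the protective protein that stabilizes β-galactosidase and neuraminidase, differed by -0.46 ± 0.06 and -0.77 ± 0.06, and the carboxypeptidase gene Ctsz by -0.40 ± 0.05 and -0.74 ± 0.05. Ctso and Ctss (cathepsin S, which serves antigen presentation) were the only members with a mean signal under 50 over all arrays, where a low level is not told apart from background. Ctso differed by -0.44 ± 0.07 and -0.53 ± 0.07, and Ctss by -0.33 ± 0.08 and -0.32 ± 0.08. The exception in direction was Ctsf, with 138 ± 9.8 in iPS and 139 ± 6.36 in R1 arrays, against 92.5 ± 16.1 in MEF arrays. It differed by 0.51 ± 0.10 in iPS (adjusted p = 0.0017) and 0.53 ± 0.10 in R1 cells (adjusted p = 0.00144), without reaching a call.

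The 12 genes of glycan breakdown were mixed. In iPS cells 6 were lower and 2 higher by the adjusted p, against 23.2% and 24.8% of all genes. In R1 cells 8 were lower and 2 higher, against 23% and 25.9%. The medians were -0.24 in iPS and -0.32 in R1 cells. Of these genes 16.7% were called in each comparison, near the background of 12.7% in iPS and 13.5% in R1 cells. Both genes that fell act on glycosaminoglycans. Gusb, the β-glucuronidase gene, had signals of 105, 133 and 143 in iPS and 148, 146 and 155 in R1 arrays, against 359.5, 416 and 393 in MEF arrays. It fell, by a log2 difference of -1.51 ± 0.10 in iPS (adjusted p = 6.53e-07) and -1.29 ± 0.10 in R1 cells (adjusted p = 1.76e-06). Arsb, the sulfatase of dermatan and chondroitin sulfate, had 68.1, 71.0 and 61.8 in iPS and 47.5, 69.1 and 54.6 in R1 arrays, against 171, 246 and 206 in MEF arrays. It fell, by a log2 difference of -1.42 ± 0.13 in iPS (adjusted p = 9.51e-06) and -1.61 ± 0.13 in R1 cells (adjusted p = 3.55e-06), with all MEF arrays above the others. A second Arsb probe set moved the same way by -0.90 in iPS and -0.999 in R1 cells, short of the minimum difference. Arsb was the only member with more than 1 probe set.

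Other enzymes of glycosaminoglycan breakdown were lower by less. Ids, the iduronate sulfatase of heparan and dermatan sulfate, differed by -0.73 ± 0.07 and -0.89 ± 0.07, Naglu by -0.56 ± 0.08 and -0.48 ± 0.08, and the heparan sulfatase gene Sgsh by -0.38 ± 0.07 and -0.39 ± 0.07 in iPS and R1 cells. Arsa, which removes sulfate from sulfatide, differed by -0.55 ± 0.08 and -0.53 ± 0.08. Idua, which acts in the same pathway as Ids, differed by -0.04 ± 0.04 in iPS (95% interval -0.14 to 0.06) and -0.14 ± 0.04 in R1 cells (adjusted p = 0.0217). The α-glucosidase gene Gaa, needed to degrade glycogen, and the sialidase gene Neu1 passed the adjusted p in neither. Their intervals were -0.29 to 0.08 and -0.13 to 0.17 in iPS and -0.31 to 0.06 and -0.22 to 0.08 in R1 cells.

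Genes for α-galactosidase A (Gla) and β-galactosidase (Glb1), which remove galactose from glycolipids, were higher in both pluripotent groups. Gla had signals of 545, 605 and 568 in iPS and 458, 478 and 405 in R1 arrays, against 315, 333 and 402 in MEF arrays. It differed by 0.69 ± 0.09 in iPS (adjusted p = 0.000137) and 0.34 ± 0.09 in R1 cells (adjusted p = 0.0114). Glb1 had 304, 349.7 and 410.1 in iPS and 425, 405 and 399 in R1 arrays, against 249, 313 and 259.6 in MEF arrays. The lowest iPS array was below the highest MEF array, and Glb1 differed by 0.35 ± 0.11 in iPS (adjusted p = 0.0221) and 0.56 ± 0.11 in R1 cells. Neither gene reached the minimum difference. Hexa, the α subunit of β-hexosaminidase, differed by 0.03 ± 0.09 in iPS and -0.25 ± 0.09 in R1 cells (adjusted p = 0.857 and 0.0387).

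Among the 5 genes of lipid handling, 4 were lower in each comparison by the adjusted p, against 23.2% of all genes in iPS and 23% in R1 cells. Lipa, the acid lipase that frees cholesterol from its esters, had signals of 134, 133 and 153 in iPS and 153, 177 and 147 in R1 arrays, against 523, 560.3 and 549 in MEF arrays. The iPS mean was 25.8% and the R1 mean 29.3% of the MEF mean. Lipa fell, by a log2 difference of -1.84 ± 0.07 in iPS (adjusted p = 3.82e-08) and -1.68 ± 0.07 in R1 cells (adjusted p = 5.73e-08). Psap, the precursor of the saposins that present sphingolipids to their hydrolases, had 2369, 2353 and 2369 in iPS and 1552, 1596 and 1418 in R1 arrays, against 3666, 3641 and 3641 in MEF arrays. The groups were fully apart from each other, with iPS arrays between R1 and MEF arrays. Psap fell in R1 cells (-1.25 ± 0.05, adjusted p = 2.85e-08) and differed by -0.62 ± 0.05 in iPS cells, short of a call.

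Niemann-Pick C proteins carry cholesterol out of the lysosome, with NPC2 handing it to the membrane protein NPC1, and the differences of their genes had opposite signs. Npc2 averaged 642 ± 14.2 in iPS, 544 ± 52 in R1 and 875 ± 25.4 in MEF arrays, a difference of -0.44 ± 0.07 and -0.67 ± 0.07. Npc1 had signals of 505, 537 and 523 in iPS and 491, 461 and 484 in R1 arrays, against 428, 461 and 439.6 in MEF arrays. All iPS arrays were above the MEF arrays, and Npc1 differed by 0.23 ± 0.05 in iPS (adjusted p = 0.00271) and 0.11 ± 0.05 in R1 cells (adjusted p = 0.0931). The acid ceramidase gene Asah1 differed by -0.47 ± 0.07 and -0.64 ± 0.07.

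The 6 membrane protein genes went in different directions. Cd63, a tetraspanin of late endosomes, lysosomes and exosomes, had 190.0, 215 and 215 in iPS and 106, 148 and 133 in R1 arrays, against 826, 855 and 755 in MEF arrays. This was 25.5% of the MEF mean in iPS and 15.9% in R1 cells. It fell, by a log2 difference of -1.89 ± 0.10 in iPS (adjusted p = 2.44e-07) and -2.52 ± 0.10 in R1 cells (adjusted p = 3.51e-08), and the R1 value was the lowest of the 35 genes in that comparison.

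Lamp2, a membrane protein with a splice form that serves chaperone-mediated autophagy, had 396, 468 and 443 in iPS and 402, 458 and 362 in R1 arrays, against 1168, 1235 and 1252 in MEF arrays. It fell, by a log2 difference of -1.45 ± 0.09 in iPS (adjusted p = 4.6e-07) and -1.55 ± 0.09 in R1 cells (adjusted p = 2.59e-07). Lamp1, its closest relative, had 1541, 1641 and 1629 in iPS and 1607, 1675 and 1652 in R1 arrays, against 2091, 2288 and 2106 in MEF arrays. MEF arrays were highest for both genes, but the differences of Lamp1 were only -0.43 ± 0.05 in iPS (adjusted p = 5.63e-05) and -0.39 ± 0.05 in R1 cells (adjusted p = 0.000102). Whether the change itself differs between Lamp1 and Lamp2 was not tested. Scarb2, the receptor that brings β-glucocerebrosidase to lysosomes, differed by 0.12 ± 0.10 in iPS and 0.42 ± 0.10 in R1 cells (adjusted p = 0.417 and 0.00636). The calcium channel gene Mcoln1 had 282, 315 and 319.6 in iPS and 313, 298 and 294 in R1 arrays, against 331, 319.6 and 313 in MEF arrays. The iPS arrays overlapped the MEF arrays and the highest R1 array equalled the lowest MEF array, and the intervals of the difference were -0.20 to 0.06 in iPS and -0.21 to 0.04 in R1 cells.

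Cd68, a glycoprotein best known from macrophages, had signals of 239, 249 and 278 in iPS and 286, 322 and 302 in R1 arrays, against 90.5, 113 and 124 in MEF arrays. It rose by 1.12 ± 0.10 in iPS (adjusted p = 6.54e-06) and 1.36 ± 0.10 in R1 cells (adjusted p = 1.55e-06), and the iPS call ended with a pseudocount of 64 (0.89). The 16 other macrophage markers had 0 called genes in both comparisons. By limma's adjusted p alone 1 was lower in iPS cells, and 1 was higher and 1 lower in R1 cells. Their summed signal was 540.3 to 584 in iPS, 548 to 603 in R1 and 565 to 597 in MEF arrays, and the macrophage genes Ptprc, Adgre1 and Csf1r had mean signals of 27.4, 21.5 and 40.6 in iPS arrays, against 29.8, 24.3 and 43.6 in MEF arrays. The part of such cells in the difference of Cd68 was not tested.

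Tfeb, the transcription factor of the CLEAR network, moved opposite to most of the enzyme genes. Its signal was 274, 290.0 and 272 in iPS and 254, 294 and 290.0 in R1 arrays, against 108, 132 and 109 in MEF arrays. The pluripotent arrays overlapped each other and were all above the MEF arrays, at 240% of the MEF mean in iPS and 241% in R1 cells. Tfeb rose by 1.16 ± 0.08 in iPS (adjusted p = 1.11e-06) and 1.16 ± 0.08 in R1 cells (adjusted p = 1.02e-06), calls that ended with a pseudocount of 64 (0.93 in both). Tfe3, a close relative, had 522 ± 30.7 in iPS, 502 ± 19.5 in R1 and 277 ± 19.2 in MEF arrays. It was higher by 0.88 ± 0.06 and 0.82 ± 0.06, under the minimum difference. Mitf differed by 0.12 ± 0.09 in iPS (adjusted p = 0.314) and 0.37 ± 0.09 in R1 cells (adjusted p = 0.00541). TFEB and TFE3 are controlled largely through their place in the cell, which RNA levels do not show.

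**Figure D2:**
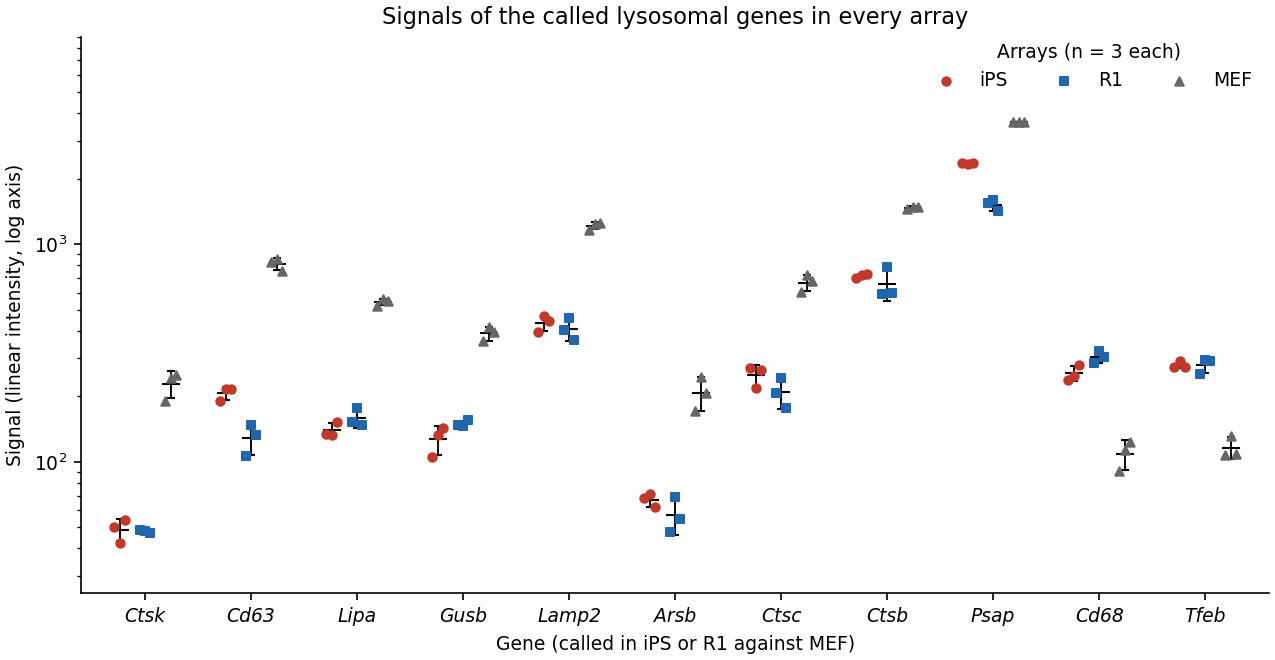
Signal in every array (linear intensity on a log axis) of the 11 lysosomal genes called in iPS or R1 against MEF, with iPS (circles), R1 (squares) and MEF (triangles) arrays and the mean ± SD of 3 arrays in black. For each gene the MEF arrays lie apart from both pluripotent groups, above them for 9 genes and below them for Cd68 and Tfeb.

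Set against the promoter windows shown above, the genes with the E-box core and those without are given side by side. Of the 12 genes with the core, 0 were called in either comparison with MEF by limma, beside 12.7% of all genes in iPS and 13.5% in R1 cells. With 12 genes, a count of 0 is near that background. By its adjusted p alone 7 were lower and 3 higher in each, beside 48% and 48.9% of all genes in either direction. Their median difference was -0.31 in iPS (range -0.56 to 0.69) and -0.39 in R1 cells (range -0.77 to 0.56). Of the 19 genes with a window but without the core, 7 fell and 2 rose in iPS cells and 8 fell and 2 rose in R1 cells. Their median was -0.44 in iPS (range -1.91 to 1.16) and -0.74 in R1 cells (range -2.52 to 1.36). That same count of 0 means that every gene that fell and had a window lacked the core, as did Cd68 and Tfeb. Ctsb had no matched window. Among all tested genes with a window the medians were 0.05 with and 0.01 without the core in iPS cells, and 0.06 and 0.02 in R1 cells. The genes are not replicates, and no test was made of this contrast.

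**Figure D3:**
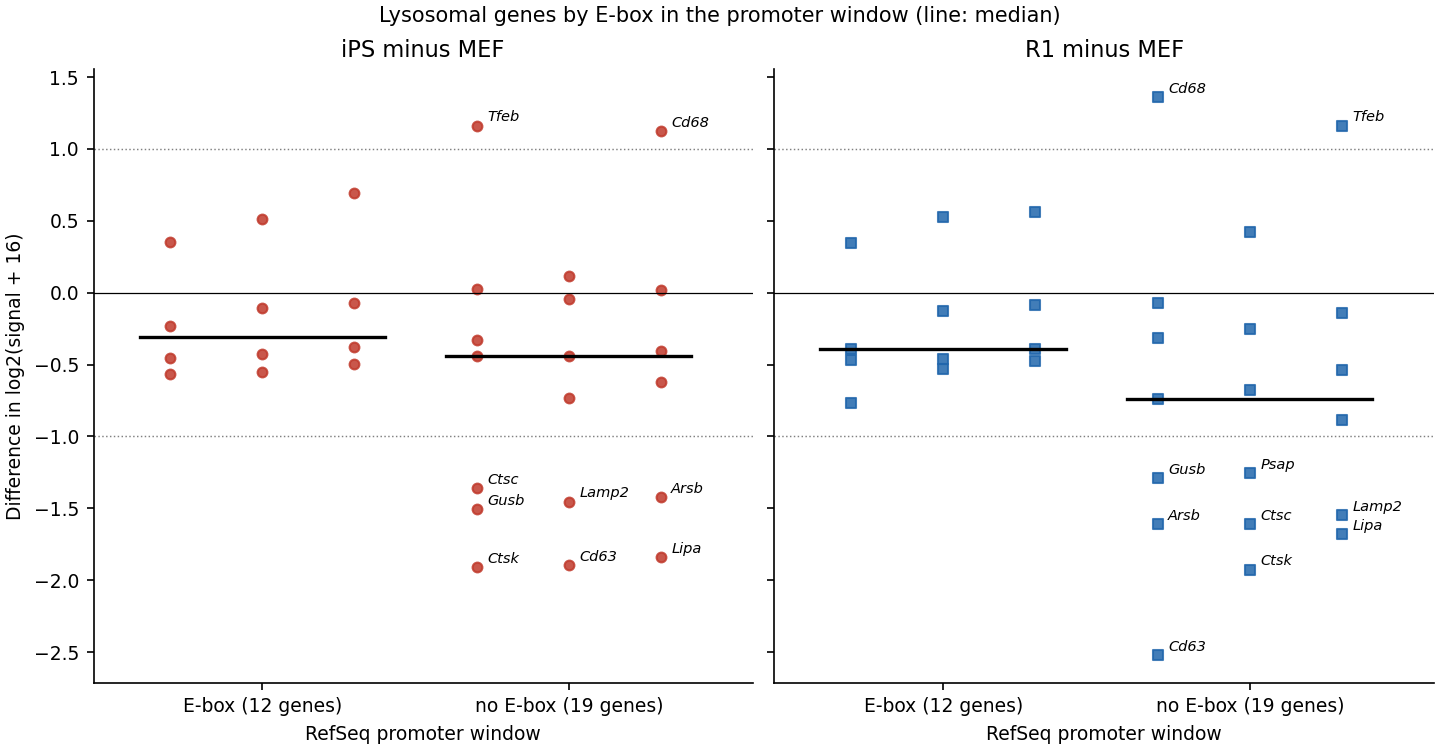
Differences in log2(signal + 16) of iPS minus MEF (left panel) and R1 minus MEF (right panel) for the 12 genes with and the 19 genes without the E-box core in a RefSeq promoter window, with medians as lines and dotted lines at the minimum difference of a call. Genes with the core stay between -0.77 and 0.56 in R1 cells, and every gene past 1 in size is in the column without it. With 12 genes, a count of 0 called is near the background of 12.7% in iPS and 13.5% in R1 cells.

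The third comparison sets the iPS cells beside R1 cells. In limma's fit 0 of 35 lysosomal genes were called, which is near the background of 0.461%. By the adjusted p alone 4 genes (11.4%) were higher in iPS cells and 0 lower, against 4.12% and 4.4% of all genes (8.52% in either direction). The median difference was 0.09, beside -0.01 over all genes. The sign was positive for 22 of the 35 genes (62.9%), against 47% of all genes. All iPS arrays lay above all R1 arrays for 11 lysosomal genes and below them for 2, against 9.84% and 12.1% of all genes (21.9% in either direction).

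The 4 genes were Psap, Cd63, Ctsz and Ctsa. Psap, whose array values are given above, was higher in iPS than in R1 cells by 0.63 ± 0.05 (adjusted p = 0.000143), so that the iPS mean was 155% of the R1 mean. Cd63 was higher by 0.63 ± 0.10 (adjusted p = 0.00666), at 160% of the R1 mean. Both genes, like Ctsz and Ctsa, have their lowest mean in R1 and their highest in MEF. Of the 23 lysosomal genes lower in both comparisons with MEF by the adjusted p, 15 had an iPS mean above the R1 mean. The share among all genes lower in both was not counted, so this number has no background to be read against. Ctsz had 1038, 1089.9 and 1105 in iPS and 861, 885 and 809 in R1 arrays, a difference of 0.33 ± 0.05 (adjusted p = 0.00486). Ctsa had 596, 630.3 and 600.5 in iPS and 461, 488 and 516 in R1 arrays, a difference of 0.31 ± 0.06 (adjusted p = 0.0147). For Ctsa the adjusted p was 0.0564 without iPS replicate 2 and 0.0602 without R1 replicate 1. When single arrays were dropped, 3 to 9 genes were higher at this threshold. The 9 came without R1 replicate 2, which had 0 lower genes, and without iPS replicate 3 there were 4 higher and 1 lower.

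Fibroblast markers differed in the same direction in this comparison. Of 14, 3 were higher and 0 lower in iPS cells by the adjusted p, against 4.12% and 4.4% of all genes. Among the 3 was Col1a1, with 1229 ± 108 in iPS and 785 ± 211 in R1 arrays (0.67 ± 0.15, adjusted p = 0.0289). The part of this signal in the differences of Psap, Cd63, Ctsz and Ctsa was not tested. Of 10 pluripotency markers, 3 were lower and 0 higher in iPS cells by the adjusted p, against 4.4% and 4.12% of all genes. By the call rule 1 of them fell, and their lowest difference was -2.77. Among the lysosomal genes, Gla (0.35 ± 0.09, adjusted p = 0.0508), Ctsd (0.23 ± 0.06, adjusted p = 0.0578) and Npc2 (0.24 ± 0.07, adjusted p = 0.0578) stood just outside the threshold. On the other side Scarb2 had the lowest value of the lysosomal genes, -0.30 ± 0.10 (adjusted p = 0.116). For Tfeb the interval of the difference was -0.18 to 0.18, for Ctsk -0.20 to 0.24, for Lamp1 -0.15 to 0.08 and for Lamp2 -0.10 to 0.29.

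**Figure D4:**
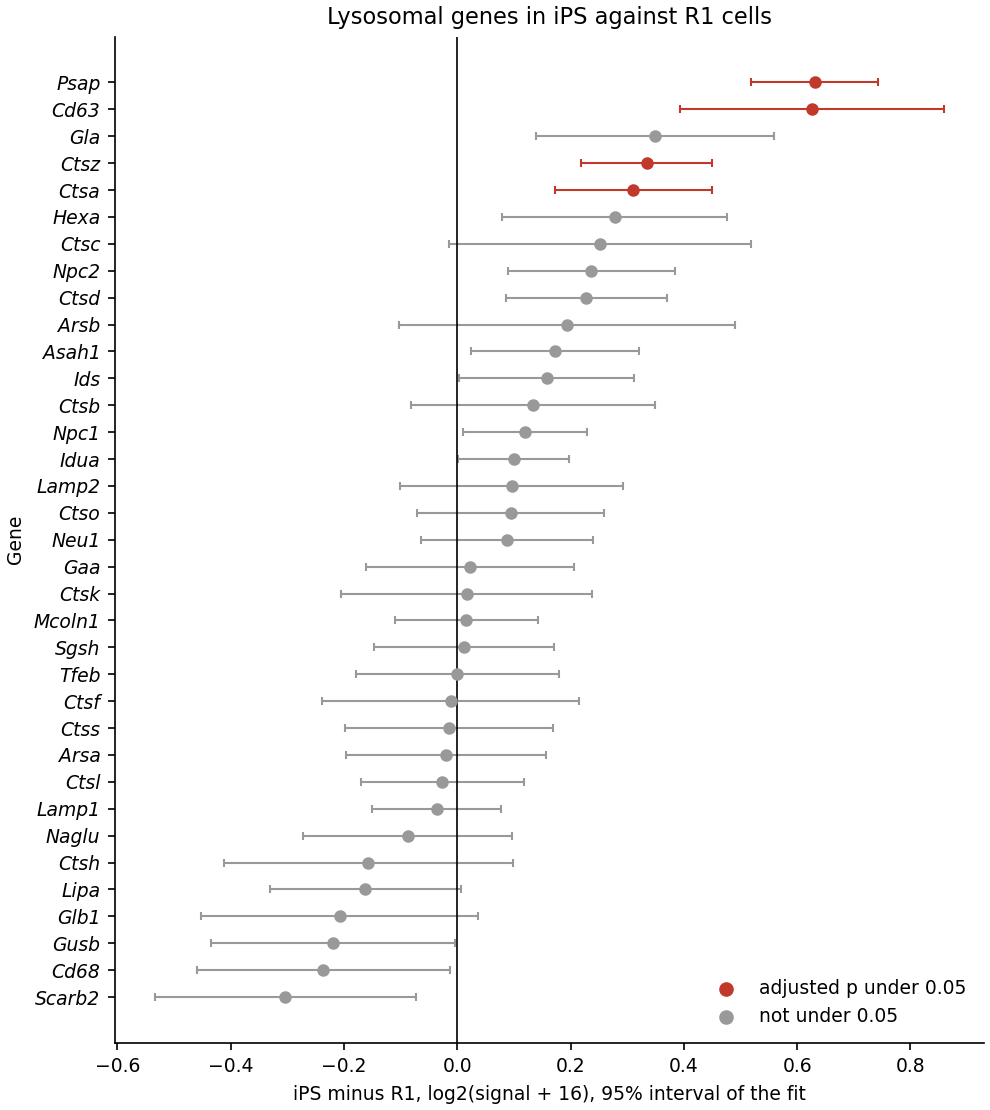
Differences in log2(signal + 16) of iPS minus R1 for the 35 lysosomal genes, with 95% intervals of the fit from 3 arrays a group. Red points mark the 4 genes with an adjusted p under 0.05, from 0.31 for Ctsa to 0.63 for Psap, and the other genes lie between -0.30 and 0.35.

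Other genes of the lysosome and of its supply were taken from lists by role. Of 29 measured further hydrolases, 2 rose and 2 fell against MEF in iPS cells and likewise in R1 cells, with medians of -0.13 and -0.17. These 13.8% are near the background of 12.7% in iPS and 13.5% in R1 cells. The β-mannosidase gene Manba rose, with 472 ± 47.9 in iPS and 341 ± 5.96 in R1 arrays, against 88.4 ± 9.37 in MEF arrays (2.22 ± 0.08 and 1.78 ± 0.08). The dipeptidyl peptidase gene Dpp7 rose by 1.33 ± 0.12 and 1.14 ± 0.12. Smpd1, the acid sphingomyelinase gene, fell, by a log2 difference of -1.60 ± 0.06 and -1.49 ± 0.06, and Hgsnat, which acetylates heparan sulfate ends, by -1.19 ± 0.08 and -1.11 ± 0.08. By the adjusted p alone 12 of these genes (41.4%) were lower and 6 (20.7%) higher in each comparison. Over all genes the shares were 23.2% lower and 24.8% higher in iPS cells, and 23% and 25.9% in R1 cells.

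Of 23 further lysosomal membrane genes 1 rose and 1 fell in iPS cells, and 1 rose and 2 fell in R1 cells. The called shares of 8.7% and 13% are at or below the same background. By the adjusted p 10 (43.5%) were lower and 4 (17.4%) higher in iPS cells, against 23.2% and 24.8% of all genes. In R1 cells 12 (52.2%) were lower and 6 (26.1%) higher, against 23% and 25.9%. The medians were -0.15 in iPS and -0.25 in R1 cells. Laptm5, known mainly from blood cells, rose, with 905 ± 233 in iPS and 816 ± 118 in R1 arrays, against 70.1 ± 9.33 in MEF arrays (3.39 ± 0.17 and 3.27 ± 0.17). The macrophage markers beside Cd68 are those given above for this gene too. Sidt2 fell, by a log2 difference of -1.01 ± 0.06 and -1.13 ± 0.06. Ncstn, a subunit of γ-secretase, fell in R1 cells (-1.01 ± 0.07) and differed by -0.89 ± 0.07 in iPS cells, short of a call. The proton pump that acidifies lysosomes, the V-ATPase, had medians of 0.01 in both comparisons over 24 genes. Of the V-ATPase genes 8.33% were called in iPS and 12.5% in R1 cells, against 12.7% and 13.5% of all genes. Its accessory subunit gene Atp6ap1 fell, by a log2 difference of -1.39 ± 0.07 and -1.50 ± 0.07, and Tcirg1, the a3 subunit of osteoclast pumps, by -1.17 ± 0.07 and -1.27 ± 0.07. Atp6v1b2 rose in R1 cells (1.07 ± 0.05) and differed by 0.87 ± 0.05 in iPS cells, short of a call.

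Of 18 genes for sorting to lysosomes only Igf2r, the cation-independent mannose 6-phosphate receptor, was called in either comparison with MEF, 5.56% of the list and below the background. It had 753 ± 26.4 in iPS and 692 ± 85.7 in R1 arrays, against 2173 ± 239.9 in MEF arrays, and fell, by a log2 difference of -1.50 ± 0.10 and -1.63 ± 0.10. Igf2r is imprinted in mouse. M6pr, the other mannose 6-phosphate receptor gene, was not analysed here. The kinase complex mTORC1 holds TFEB in the cytoplasm. The 18 genes of the MiT/TFE factors and of mTORC1 had medians of 0.20 in iPS and 0.30 in R1 cells. Of them 11.1% and 5.56% were called, below the background of 12.7% and 13.5%. By the adjusted p 9 were higher and 1 lower in iPS cells, against 24.8% and 23.2% of all genes. In R1 cells 10 were higher and 1 lower, against 25.9% and 23%. Of the Rag GTPases that recruit mTORC1 and TFEB to the lysosome, Rragb rose, with 269 ± 22.1 in iPS and 289 ± 47.3 in R1 arrays, against 33.0 ± 1.45 in MEF arrays. The MEF level is not told apart from background, so the fitted differences of 2.54 and 2.63 rest on that floor. Rragd had 476 ± 150.4 in iPS, 160.3 ± 33.8 in R1 and 74.6 ± 7.76 in MEF arrays. It rose in iPS against MEF (2.40 ± 0.20) and was the only gene of the 7 lists that was called in iPS against R1 (1.46 ± 0.20, adjusted p = 0.0027).

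**Figure D5:**
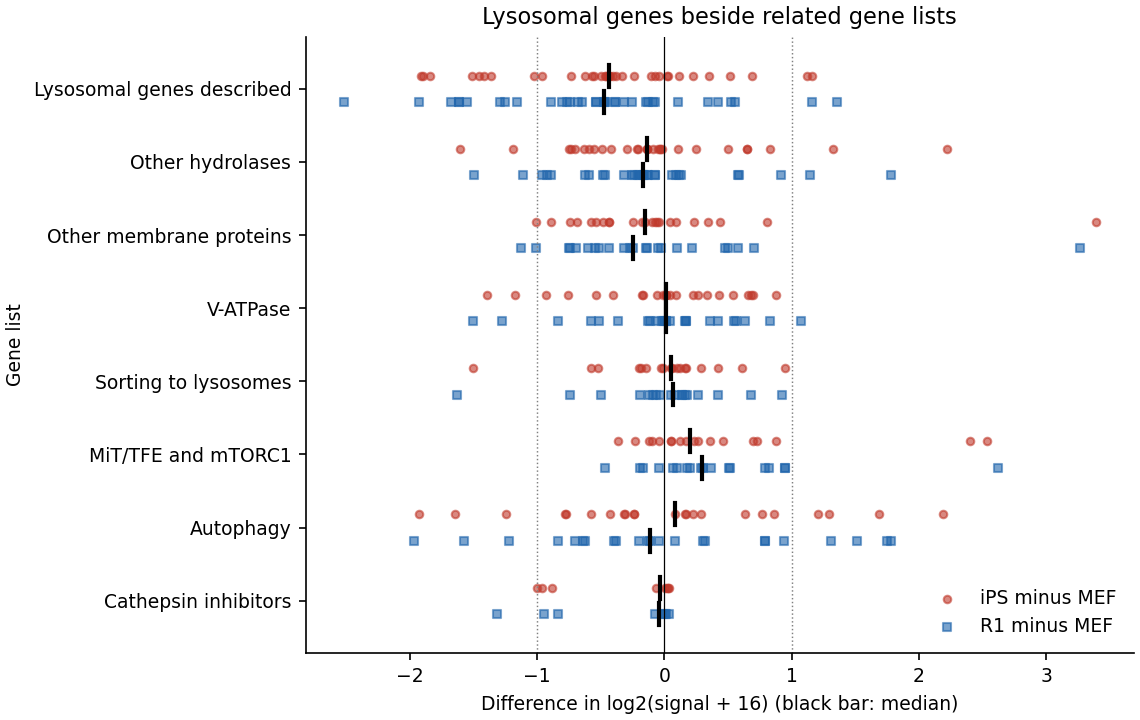
Differences in log2(signal + 16) of iPS minus MEF (circles) and R1 minus MEF (squares) for the 35 lysosomal genes and 7 lists of related genes, 1 point a gene, with medians as black bars and dotted lines at 1 in size. The medians are -0.44 and -0.48 for the 35 genes and 0.01 for the V-ATPase.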

How the data were processed

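The authors deposited a linear intensity for each probe set on each array. GCOS 1.4 appears in the submitters' processing notes, with no step named. The sources used here do not give the background correction, summarization or normalization. All deposited intensities were powers of 2 whose exponents had 2 decimals, and no arrays were identical. The platform annotation gave a single symbol to 21789 of 35557 probe sets, several to 1621, and 12147 are unnamed here. Where a gene had several probe sets, as 999 did, that with the highest mean log2(signal + 16) was used. Signals were fitted as log2(signal + 16), a scale that understates differences of dim genes, with a mean per group over all 9 arrays using lmFit and eBayes of limma 3.58.1 under R 4.3.3. Every adjusted p is limma's, with the Benjamini-Hochberg method over all 19938 genes. Errors are the fit's SE for differences and the SD of 3 arrays for signals. The genes and lists were chosen with earlier results of these data known. Signals in every array are given for called members and for Lamp1, Lamp2, Npc1, Tfeb and Mcoln1, and for Gla, Glb1, Ctsz and Ctsa, chosen after their values were seen. From each related list the called genes with the largest differences, at most 6 per comparison, were named. For Rragd, Gabarapl2 and Atg13 the difference is given in 1 comparison with MEF only. Tfe3, Mitf, Igf2r and Cst3 were named whether called or not. The lists covered further hydrolases and membrane proteins, the V-ATPase, sorting, MiT/TFE and mTORC1, autophagy and cathepsin inhibitors. Markers of macrophages, osteoclasts, fibroblasts, pluripotent, endothelial and primitive endoderm cells were also listed. Summed endothelial signals were 556 to 654 in iPS, 656 to 705 in R1 and 423 to 478 in MEF arrays, and primitive endoderm signals 660.3 to 832 in iPS, 862 to 922 in R1 and 2551 to 2706 in MEF arrays. Neither list shared a direction by sign. Of the 8 primitive endoderm markers 5 were higher and 3 lower by sign in each comparison with MEF. By the call rule 3 of them fell and 0 rose in iPS cells, against 7.57% and 5.08% of all genes. In R1 cells 2 of them fell and 0 rose, against 7.93% and 5.56%. Dab2 had the highest mean of them in MEF arrays (1109), and Pdgfra is a fibroblast marker here too. Of the 7 endothelial markers 1 rose and 1 fell in each. Alternatives covered normalization, the pseudocount, dim genes, probe sets, thresholds, the spread estimate, the replicate block and leaving out each array. The fit was tested on simulated data. Precision was limited by 3 arrays per group.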

Additional observations from a re-analysis of the deposited data

Results flagged for a closer look

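For 4 lysosomal genes the change against MEF differed between iPS and R1 cells by the direct test of iPS against R1. On the log2 scale iPS cells were higher by 0.63 for Psap, 0.63 for Cd63, 0.33 for Ctsz and 0.31 for Ctsa. All 3 iPS arrays were above all 3 R1 arrays for each, as for 9.84% of all genes. The 4 genes were chosen by the test on these same arrays, so this is no separate support. Against MEF, Psap differed by -0.62 in iPS and -1.25 in R1 cells and was called in R1 alone. None of the 4 differences of iPS against R1 reached the minimum size of a call. Fibroblast markers were at a summed signal of 4212 to 5159 in iPS and 3180 to 4240 in R1 arrays, and their part in these differences was not tested. Groups of 3 arrays were not searched for single outlying arrays.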

How the results depend on the processing

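The number of lysosomal genes called lower stayed at 8 to 9 in iPS and at 9 in R1 cells against MEF when any 1 array was left out, and the number called higher at 2 in both. Ctsh was the gene added in iPS cells, without iPS replicate 1, MEF replicate 1 or MEF replicate 3. By the adjusted p alone, the 4 genes higher in iPS than in R1 cells became 8 with quantile normalization and 7, with 1 lower, with array weights. They became 6 with the replicate block and 6 with an intensity trend, and 0 in a test against a difference of 1. With no minimum difference the counts were 23 lower and 6 higher in iPS cells, 25 lower and 6 higher in R1 cells, and 4 higher in iPS against R1 cells. A test against a difference of 1 left 5 lower and 0 higher in iPS cells and 1 higher in R1 cells, ending the calls of Ctsb, Ctsc, Arsb, Cd68 and Tfeb in iPS cells and of Ctsb, Gusb and Tfeb in R1 cells. A pseudocount of 64, which shrinks differences of dim genes by construction, left 0 higher in iPS and 1 in R1 cells. Medians moved to -0.40 with quantile normalization and -0.41 with a pseudocount of 64 in iPS cells. They moved to -0.54 with a pseudocount of 1 and -0.40 with 64 in R1 cells. In iPS against R1 cells the median was 0.047 with a pseudocount of 64 and 0.11 with array weights. Leaving out 1 array gave medians of -0.45 to -0.42 in iPS against MEF, -0.52 to -0.44 in R1 against MEF and 0.037 to 0.10 in iPS against R1.

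The replicate number of the titles was tried as a replicate block. Deviations of same-numbered arrays correlated at -0.08 to 0.24, and 4 of 9 arrays correlated best with an array of their own number, so the numbers were not taken to pair the arrays. With the block 8 genes fell and 2 rose in iPS, 9 fell and 2 rose in R1 cells, and 0 were called in iPS against R1, as without it.

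Signs turned only for differences near 0 that were not called. With quantile normalization this held for Mcoln1 in iPS against MEF (0.026), Neu1 in R1 against MEF (0.014) and Tfeb in iPS against R1 (0.0066). With array weights it held in iPS against R1 for Ctsf (0.0066), Ctsk (-0.031), Arsa (0.019) and Tfeb (0.026). When 1 array was left out, iPS against MEF gave -0.039 to 0.058 for Neu1 and -0.016 to 0.081 for Hexa. In iPS against R1 it gave -0.049 to 0.040 for Ctsf, -0.039 to 0.088 for Ctsk, -0.032 to 0.037 for Sgsh, -0.056 to 0.034 for Arsa, -0.063 to 0.036 for Tfeb, -0.074 to 0.034 for Ctsl, -0.093 to 0.034 for Ctss, -0.030 to 0.099 for Gaa and -0.016 to 0.070 for Mcoln1. The cause of these changes was not tested. With 3 arrays a group and no detection calls, small differences and dim genes are limited most.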

Other observations

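Autophagy genes, whose products deliver cargo to the lysosome, moved in both directions. Of 23 measured, 4 rose and 3 fell in each comparison with MEF, 30.4% called in iPS cells against 12.7% of all genes and 30.4% in R1 cells against 13.5%. Ulk1, a kinase that starts autophagosome formation, had signals of 763 ± 54.5 in iPS and 813 ± 17.3 in R1 arrays, against 226 ± 20.2 in MEF arrays (SD, n = 3 each), while its relative Ulk2 had 78.2 ± 4.88 in iPS and 75.8 ± 11.3 in R1 arrays, against 344 ± 51.8 in MEF arrays. Ulk1 rose by 1.69 ± 0.07 in iPS and 1.78 ± 0.07 in R1 cells, and Ulk2 fell, by a log2 difference of -1.92 ± 0.11 and -1.97 ± 0.11. Atg14, a subunit of the lipid kinase complex of autophagy, rose by 2.19 ± 0.15 and 1.75 ± 0.15, as did the catalytic subunit gene Pik3c3 (1.21 ± 0.10 and 1.31 ± 0.10). Wipi1, which binds the lipid this complex makes, fell, by a log2 difference of -1.64 ± 0.10 and -1.58 ± 0.10. Gabarap, an LC3-like protein, fell, by a log2 difference of -1.25 ± 0.10 and -1.22 ± 0.10, whereas its relative Gabarapl2 rose in R1 cells (1.52 ± 0.12). Atg13, a partner of ULK1, rose in iPS cells (1.29 ± 0.07). In iPS against R1, 0 of the 23 autophagy genes were called, beside 0.461% of all genes, and their differences ran from -0.66 to 0.50. A call against MEF in only 1 pluripotent group is therefore not shown here to be a difference between the groups.

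Cst3, which encodes the secreted cathepsin inhibitor cystatin C, averaged 1297 ± 123 in iPS and 1308 ± 102 in R1 arrays, against 2535 ± 106 in MEF arrays, a difference of -0.96 ± 0.08 and -0.95 ± 0.08 that was short of a call. Serpinb6a fell, with differences of -1.003 in iPS and -1.31 ± 0.07 in R1 cells. Its iPS call was at the threshold, and whether it holds under other settings was not tested. Of 8 measured inhibitor genes, 3 were lower and 0 higher by limma's adjusted p in each comparison. These 37.5% compare with 48% of all genes in either direction in iPS and 48.9% in R1 cells. In each comparison 1 was called (12.5%), near the background of 12.7% and 13.5%.

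E-box cores were counted in the promoter windows of related lists too. They stood in 46.7% of 15 sorting genes, 35.3% of 17 MiT/TFE and mTORC1 genes, 21.1% of 19 V-ATPase genes, 19% of 21 further membrane genes, 16.7% of 18 autophagy genes and 8.7% of 23 further hydrolases, and in 0 of 7 cathepsin inhibitors, beside 9.5% of the tested genes.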
